A study of Mus musculus with 4 samples.

Results

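Ephrins, Eph receptors, netrins, Slits and the netrin and Slit receptors are the families described here, as measured in the Py2T line of mouse breast cancer cells, which passes from an epithelial to a mesenchymal state under TGFβ. The members are 35 genes listed by name from these families, of which 34 are among the 19938 genes tested and Ephb2 was not analysed here. Each gene was read from the brightest probe set to which the array's gene table gives that symbol alone. The untreated group is 2 arrays of RNA from Py2T cells in DMEM with glutamine, penicillin, streptomycin and 10% FCS, and the TGFβ group is 2 arrays from the same line in the same medium after 5 days with TGFβ at 2 ng/ml. Both groups are a single cell line in culture, with no genotype difference between them, and the labels call the samples biological replicates without saying how the cultures were kept apart, so p-values measure only the spread between these samples. Values are log2 expression values made by the authors with RMA (robust multi-array average), on which a difference of 1 is a doubling, and the array medians over all probe sets lay between 6.74 and 6.76. The number of arrays limits the precision.

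Ephrins are membrane-bound ligands, the A class held by a lipid anchor and the B class spanning the membrane, and Eph receptors are the receptor tyrosine kinases that they activate on touching cells. Contact between them signals into both cells and sorts epithelial cells into compartments, and several members act in mammary epithelium and breast cancer. Netrins and Slits are secreted guidance cues: netrins act through Dcc, neogenin (Neo1) and the Unc5 receptors, and Slits through the Robo receptors. In the mammary gland netrin 1 with neogenin, and Slit2 with Robo1, are known for holding the layers of the duct together.

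After TGFβ, 5 of the 34 members rose (Unc5b, Efna2, Efnb1, Efna3 and Neo1), 7 fell (Ntn1, Epha4, Slit2, Ephb3, Efna5, Ntn4 and Ephb4) and 22 did not pass, where a pass is an adjusted p under 0.05 in limma over all genes tested. That is 35.3% of the members, beside 13.6% of all genes tested. The members were chosen with earlier results of these data known, so these shares are no test of the families. Of all genes tested 6.49% passed as higher and 7.15% as lower. The members' median log2 difference was -0.03 and that of all genes tested was 0.01. By class, 3 of 8 ephrins rose and 1 fell, 0 of 13 Eph receptors rose and 3 fell, 0 of 5 netrins and Slits rose and 3 fell, and 2 of 8 netrin and Slit receptors rose and 0 fell. The median log2 differences of these 4 classes were 0.30, -0.10, -0.53 and 0.07. The differences between classes were not tested.

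**Figure D1:**
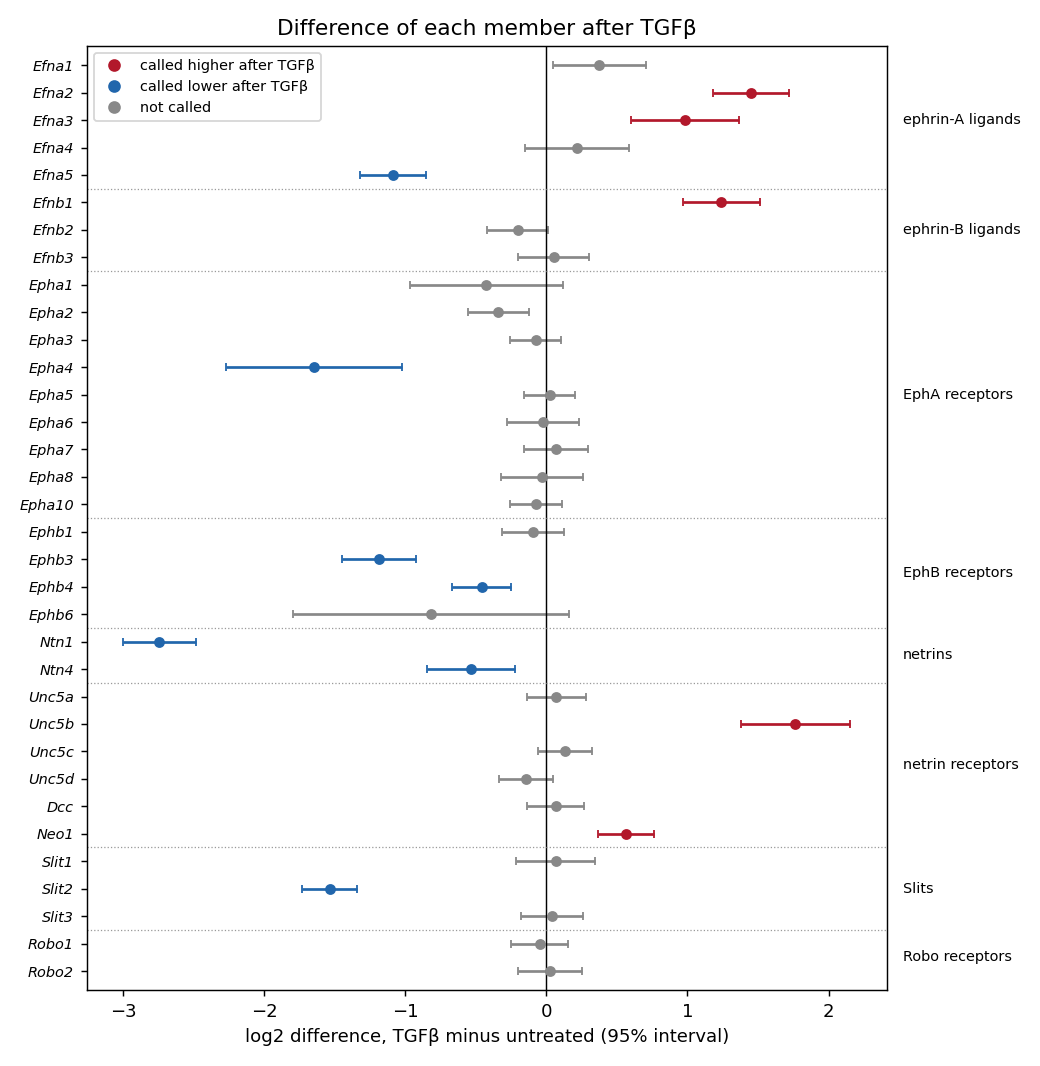
The log2 difference of each of the 34 members (horizontal axis, TGFβ minus untreated, dots with 95% intervals of the fit), grouped by family on the right, in red where called higher, blue where called lower and grey where not called. The called members farthest from 0 are Ntn1 at -2.74 and Unc5b at 1.77, and the Eph receptors have no red dot.

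The brightness of the probe sets bears on these counts. Of the 34 members 15 had a mean over the 4 arrays under 7, as did 46.4% of all genes tested, and 0 of these 15 passed, while 12 of the 19 brighter members passed. Efna3 is among the 19 only through its TGFβ arrays, as it was under 7 in both untreated arrays. Of all genes tested with a mean of at least 7, 22.4% passed. Of the 9249 with a mean under 7, 323 passed, so 0 of 15 is near the share of all dim genes. The deposited values carry no detection calls, so a member under 7 may be at background, where a change would be hard to detect.

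**Figure D2:**
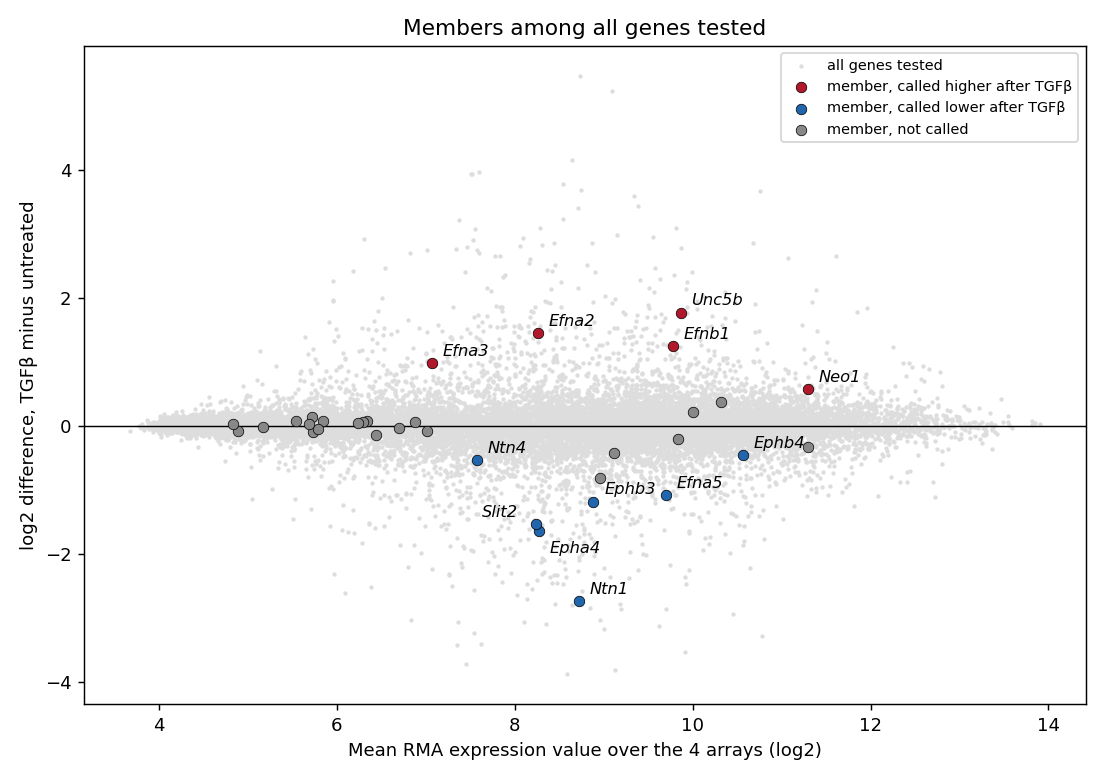
Each gene tested is a pale dot at its mean RMA value over the 4 arrays (horizontal axis, log2) and its log2 difference after TGFβ (vertical axis), with the 34 members as large dots, red for called higher, blue for called lower and grey for not called. The 15 members left of 7 lie close to 0, and the 12 called members lie to the right of 7.

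The stretches just upstream of gene starts are shown for 5 members to give the sequence context of genes that moved or nearly moved. The 5 were picked by name and not by a rule, so they do not stand for all members that rose or fell. They are the 250 bases before the start in RefSeq on build GRCm38.p6, and these 5 lie outside every gene span annotated there. Efna2 (chr10:80179232-80179481, plus strand), Efnb1 (chrX:99135811-99136060, plus strand) and Unc5b (chr10:60831582-60831831, minus strand) are members that rose. Ntn4 (chr10:93640799-93641048, plus strand) is a member that fell. Epha2 (chr4:141300971-141301220, plus strand) stands just outside the threshold. Each reads 5′ to 3′ on its own strand, with motif matches in capitals.
Efna2: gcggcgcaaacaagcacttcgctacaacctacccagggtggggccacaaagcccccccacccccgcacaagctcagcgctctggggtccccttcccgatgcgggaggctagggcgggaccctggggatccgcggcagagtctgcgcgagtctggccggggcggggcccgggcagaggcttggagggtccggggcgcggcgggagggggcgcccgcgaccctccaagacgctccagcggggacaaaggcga
Efnb1: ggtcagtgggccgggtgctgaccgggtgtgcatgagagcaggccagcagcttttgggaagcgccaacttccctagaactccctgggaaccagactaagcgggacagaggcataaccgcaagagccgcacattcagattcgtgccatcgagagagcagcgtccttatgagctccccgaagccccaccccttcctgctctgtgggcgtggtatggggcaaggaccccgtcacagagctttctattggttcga
Unc5b: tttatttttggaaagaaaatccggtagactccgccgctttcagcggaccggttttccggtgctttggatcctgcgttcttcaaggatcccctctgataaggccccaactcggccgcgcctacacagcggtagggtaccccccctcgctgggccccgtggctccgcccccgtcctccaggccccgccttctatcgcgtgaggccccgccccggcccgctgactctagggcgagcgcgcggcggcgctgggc
Ntn4: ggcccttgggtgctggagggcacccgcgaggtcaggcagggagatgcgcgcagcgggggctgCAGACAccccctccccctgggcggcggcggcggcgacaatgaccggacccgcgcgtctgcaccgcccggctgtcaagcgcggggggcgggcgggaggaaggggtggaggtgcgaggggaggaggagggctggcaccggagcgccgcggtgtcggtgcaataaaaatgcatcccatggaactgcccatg
Epha2: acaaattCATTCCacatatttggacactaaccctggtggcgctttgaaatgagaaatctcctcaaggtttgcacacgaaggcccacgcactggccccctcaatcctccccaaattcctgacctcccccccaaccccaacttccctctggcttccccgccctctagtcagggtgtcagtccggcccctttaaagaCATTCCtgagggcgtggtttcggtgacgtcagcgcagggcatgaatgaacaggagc
The motifs searched, on both strands, were AP-1 (TGANTCA), the palindromic Smad box (GTCTAGAC), the CAGA element of Smad targets (CAGACA), the TEAD motif (GGAATG) and the E-box of Zeb and Snail factors (CACCTG). The capitals in Ntn4 mark a CAGA element, and those in Epha2 mark 2 TEAD motifs read on the opposite strand. The sequences of Efna2, Efnb1 and Unc5b hold none of the 5. The windows outside gene spans of Efna5, which fell, and of Efna3, which rose, are not shown and also hold none. The search covered every window of 250 bases before a start in the table, within annotated genes or not. Of the 35 members 30 have such a window, 35 windows in all, of which 14 lie outside annotated gene spans. A CAGA element was present in 7 of the 35 windows, beside 17.1% of all 32851 windows. These belonged to Efna3, Epha1, Epha6, Ntn4, Robo1, Slit2 and Slit3. For Efna3 the matches were in its window within annotated gene spans. The TEAD motif was present in 4 (Efnb2, Epha1, Epha2 and Epha3), beside 12.6% of all windows, and the E-box in 4 (Efnb2, Epha1, Ephb2 and Robo1), beside 17.2%. AP-1 and the Smad box were present in 0 of the 35, beside 6.75% and 0.167% of all windows. The median share of G and C bases was 65.6% in the member windows and 52.4% in all windows. The shares of motif matches were not compared between windows of like base content. A match describes the letters only.

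Of the 5 ephrin-A ligands 2 rose, 1 fell and 2 did not pass. Efna2, which encodes ephrin-A2, was at 7.65 and 7.42 in the untreated arrays and at 9.06 and 8.90 in the TGFβ arrays. Both TGFβ arrays were above both untreated arrays by far more than replicates differed. Efna2 rose 2.73-fold, a log2 difference of 1.45 ± 0.11 (SE, n = 2 per group, limma adjusted p = 0.0013). Efna3, encoding ephrin-A3, was at 6.67 and 6.47 untreated and at 7.77 and 7.35 with TGFβ. The groups did not overlap, and the untreated arrays lay under 7, where background may shrink the difference. Efna3 rose 1.98-fold (0.98 ± 0.15, limma adjusted p = 0.013).

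Efna5, encoding ephrin-A5, went the other way. Its values were 10.25 and 10.22 untreated and 9.04 and 9.26 with TGFβ, with replicates close in both groups. Efna5 was 2.12-fold lower (-1.09 ± 0.10, limma adjusted p = 0.0020). Efna1, encoding the main epithelial partner of the receptor EphA2, was at 10.30 and 9.97 untreated and 10.61 and 10.41 with TGFβ. The arrays of Efna1 did not overlap, yet its difference of 0.38 (95% interval 0.04 to 0.71) did not pass (limma adjusted p = 0.14). Efna4 was at 10.12 and 9.67 untreated and at 10.11 in both TGFβ arrays, so the groups overlapped (difference 0.22, 95% interval -0.15 to 0.58). Efna1, Efna3 and Efna4 are neighbours on chromosome 3 in RefSeq's GRCm38.p6 annotation, and Efna3 was the member of that cluster that passed.

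Among the ephrin-B ligands, the class with a cytoplasmic tail that signals back into its own cell, Efnb1 rose. Its values were 9.09 and 9.22 untreated and 10.53 and 10.27 with TGFβ. The groups lay well apart, and the rise was 2.36-fold (1.24 ± 0.11, limma adjusted p = 0.0021). Efnb2, known as a ligand of the receptor EphB4, was at 9.85 and 10.02 untreated and 9.75 and 9.72 with TGFβ. Its difference of -0.20 did not pass (95% interval -0.42 to 0.01). Efnb3 was dim and overlapping, at 6.77 and 6.92 untreated and 6.80 and just under 7 with TGFβ.

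**Figure D3:**
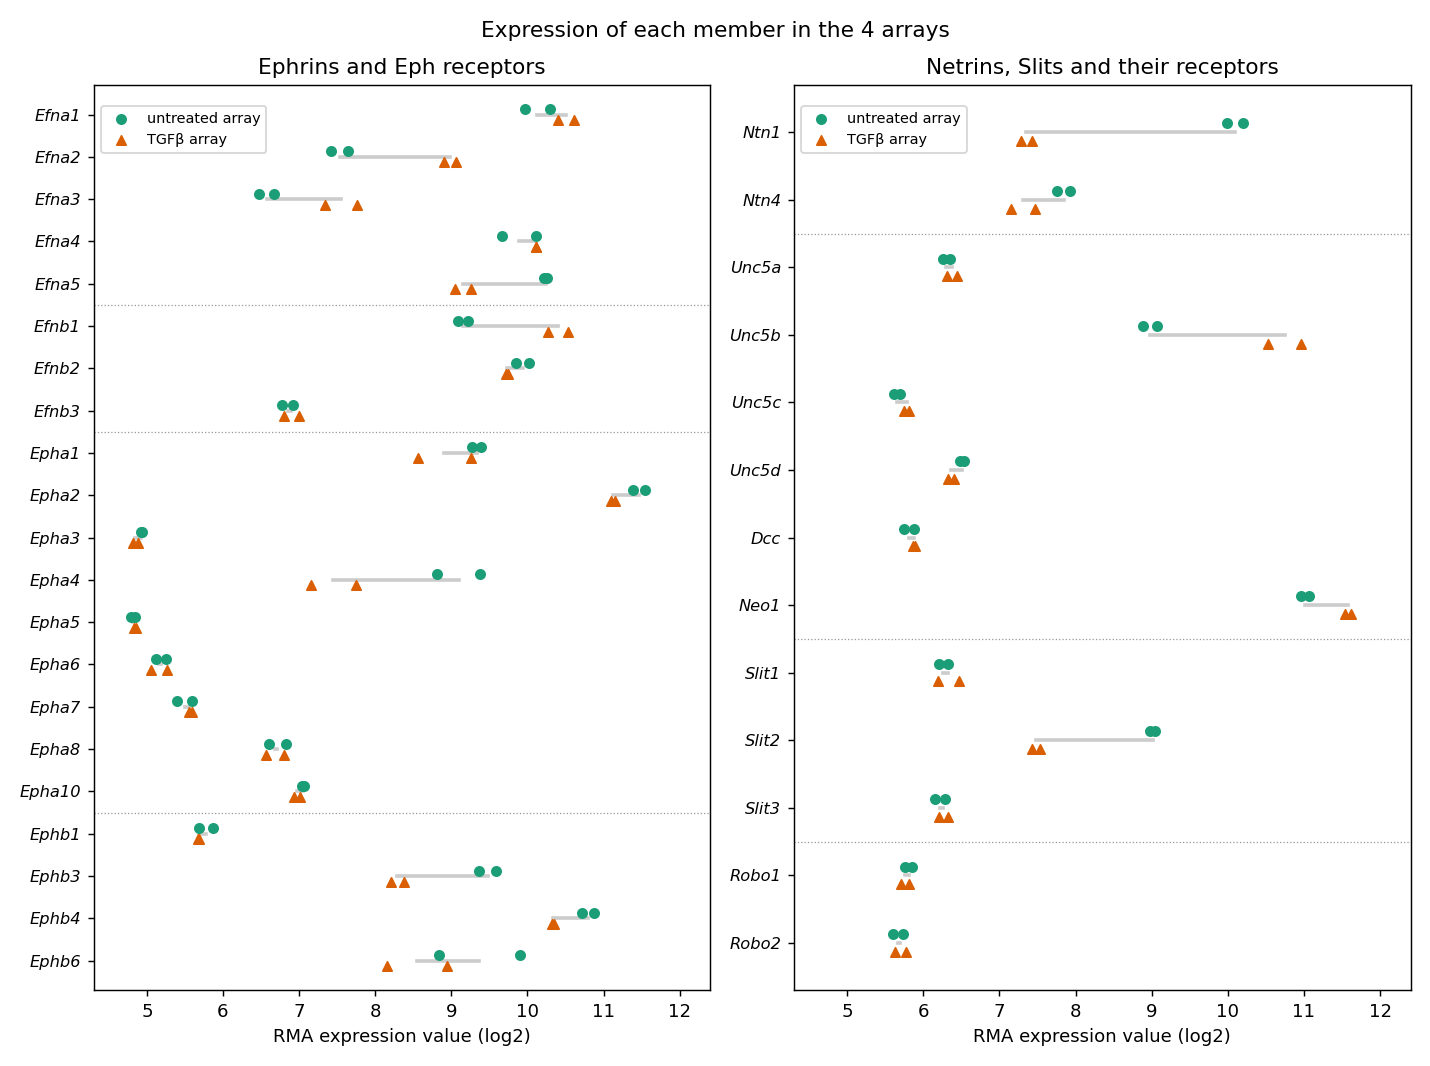
The RMA value (horizontal axis, log2) of each of the 34 members in each array, with untreated arrays as green circles and TGFβ arrays as orange triangles, a grey bar between the group means and dotted lines between families. Ntn1 spans the longest bar, from 10.20 and 9.99 to 7.28 and 7.43, and the circles and triangles of Ephb6 interleave.

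Epha4 had the largest fall among the Eph receptors. EphA4 binds ephrins of both classes. It was at 8.81 and 9.38 untreated and at 7.74 and 7.16 with TGFβ, with replicates spread in both groups but no overlap between them. Epha4 was 3.13-fold lower (-1.65 ± 0.25, limma adjusted p = 0.012). Epha2, a receptor often abundant in breast cancer cells, was at 11.38 and 11.54 untreated and 11.15 and 11.09 with TGFβ. All TGFβ arrays of Epha2 lay below all untreated arrays, by -0.34 (95% interval -0.55 to -0.12), which did not pass (limma adjusted p = 0.058). It passed at a limma adjusted p of 0.039 after cyclic loess, 0.038 after a second quantile normalization and 0.035 when variances were fitted robustly with a trend on intensity, at differences of -0.36, -0.36 and -0.34. Epha2 did not pass after median centring (-0.32, limma adjusted p = 0.092) or when any array was left out (-0.42 to -0.26, limma adjusted p from 0.089 to 0.26).

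Epha1, another epithelial receptor, was at 9.27 and 9.39 untreated, and at 9.25 and 8.56 with TGFβ. The TGFβ replicates of Epha1 disagreed by more than the gap between groups, and its difference of -0.43 (95% interval -0.97 to 0.12) did not pass (limma adjusted p = 0.31). Without TGFβ replicate 1 the difference was -0.78, and without TGFβ replicate 2 it was -0.08. The size of the Epha1 difference thus depends on which TGFβ array is kept, and the larger value rests on TGFβ replicate 2 alone. The neural receptors Epha3, Epha5, Epha6, Epha7 and Epha8 stayed under 7 in every array. Epha10, a family member whose kinase domain is inactive, was at 7.03 and 7.06 untreated and at 6.93 and 7.01 with TGFβ (difference -0.08, 95% interval -0.26 to 0.11).

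Ephb3, a receptor that positions epithelial cells in the gut crypt, fell among the EphB class. Its values were 9.58 and 9.37 untreated and 8.21 and 8.37 with TGFβ. Replicates were close and the groups lay apart, a 2.27-fold lower level (-1.19 ± 0.11, limma adjusted p = 0.0022). Ephb4, the receptor for ephrin-B2, was at 10.87 and 10.71 untreated and 10.32 and 10.35 with TGFβ. That fall was small, 1.37-fold (-0.46 ± 0.08, limma adjusted p = 0.022). Ephb4 no longer passed when untreated replicate 1 was left out (-0.38, limma adjusted p = 0.11), nor when TGFβ replicate 1 (-0.44, 0.078) or TGFβ replicate 2 (-0.47, 0.057) was.

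Ephb6, a receptor without kinase activity, varied more between replicates than any other member. It was at 9.90 and 8.84 untreated and at 8.16 and 8.95 with TGFβ, and the groups overlapped. Its difference of -0.82 carried a 95% interval of -1.80 to 0.16 (limma adjusted p = 0.28), which holds both no change and a fall of over 2-fold. With untreated replicate 1 left out it was -0.29, and with untreated replicate 2 left out -1.35. Leaving out TGFβ replicate 1 gave -0.42 and leaving out TGFβ replicate 2 gave -1.21, and Ephb6 passed in none of these fits. The macrophage gene Cd68, from the list of leukocyte markers, was also highest in untreated replicate 1 and lowest in TGFβ replicate 1, at 9.63 and 8.87 untreated and 7.60 and 8.33 with TGFβ. Cd68 was picked from that list after its values were seen. Csf1r was highest and lowest in the same arrays, at 7.90 and 7.35 untreated and 7.08 and 7.27 with TGFβ. Ptprc, Cd3e, Itgam and Tyrobp were under 7 in all arrays, with Ptprc at 5.57 and 5.49 untreated and 5.49 and 5.56 with TGFβ. The part of these markers in the Ephb6 values was not tested. Ephb1 was under 7 in all arrays.

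Ntn1, which encodes the secreted guidance cue netrin 1, had the largest difference of any member. It was at 10.20 and 9.99 untreated and at 7.28 and 7.43 with TGFβ. Both TGFβ arrays lay more than 2 log2 units below both untreated arrays. Ntn1 was 6.69-fold lower (-2.74 ± 0.10, limma adjusted p = 0.00026). Since the RNA is a bulk sample, fewer cells with the transcript and less RNA per cell cannot be told apart, here and in each result. Ntn4, a netrin of basement membranes that binds laminin, was at 7.92 and 7.76 untreated and 7.15 and 7.46 with TGFβ. The fall of Ntn4 was near the threshold, 1.45-fold (-0.53 ± 0.13, limma adjusted p = 0.045). Ntn4 did not pass when untreated replicate 1 was left out (-0.45, limma adjusted p = 0.18), nor when untreated replicate 2 (-0.61, 0.078) or TGFβ replicate 1 (-0.38, 0.12) was.

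The netrin receptors that rose were Unc5b and Neo1. Unc5b, a netrin receptor that mediates repulsion and can trigger cell death when unbound, was at 9.07 and 8.89 untreated and 10.97 and 10.53 with TGFβ. The groups were far apart, and the rise was 3.40-fold (1.77 ± 0.16, limma adjusted p = 0.0021), the largest rise among the members. Neo1, encoding neogenin, which binds both netrins and repulsive guidance molecules, was at 11.06 and 10.97 untreated and 11.54 and 11.62 with TGFβ. Its replicates were tight, and it rose 1.48-fold (0.57 ± 0.08, limma adjusted p = 0.0091). The other receptors of the group, Unc5a, Unc5c, Unc5d and Dcc, stayed under 7 in every array, with differences from -0.15 (Unc5d) to 0.13 (Unc5c).

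Slit2 was the Slit that fell. It was at 8.98 and 9.04 untreated and at 7.53 and 7.43 with TGFβ, with close replicates in both groups. Slit2 was 2.90-fold lower (-1.53 ± 0.08, limma adjusted p = 0.00050). Slit1 and Slit3 were under 7 in all arrays and overlapped between groups, with differences of 0.07 and 0.04. The Slit receptors Robo1 and Robo2 lay between 5.60 and 5.85 in the 4 arrays, with differences of -0.05 and 0.03. The probe sets of both Robo receptors were thus dim in every array, whether Slit2 was high or low.

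The 22 members that did not pass differ in what their data allow. For 21 of them the 95% interval of the log2 difference lay within -1 to 1, with Ephb6 the exception, and for 17 it lay within -0.5 to 0.5. Of the 34 members 20 had groups that did not overlap, 7 higher and 13 lower with TGFβ, beside 52.6% of all genes tested in either direction. With 2 arrays in each group a lack of overlap is therefore common and adds little. The 15 dim members lay between 4.79 and 7 in every array, with differences from -0.15 to 0.13.

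Other genes of these pathways were taken from 3 lists of further family members and effectors, 66 genes of which 63 were measured. Of these 6 rose, 8 fell and 49 did not pass, or 22.2% beside 13.6% of all genes tested, with a median log2 difference of 0.02. Of the 48 with a mean of at least 7, 13 passed, beside 22.4% of all genes tested at that brightness. Of the 13 measured further family members 1 rose and 0 fell (median 0.04). That gene was Flrt2, a membrane protein that binds Unc5 receptors, at 9.87 and 10.07 untreated and 11.67 and 11.20 with TGFβ, a 2.77-fold rise (1.47 ± 0.17, limma adjusted p = 0.0045). Its relative Flrt3 differed by 0.09. The repulsive guidance molecules Rgma and Rgmb, ligands of neogenin, differed by -0.0045 and -0.24 without passing.

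Of 30 Eph and ephrin effectors 2 rose, 6 fell and 22 did not pass (median -0.05). Fyn, a Src family kinase that acts downstream of ephrins and of Dcc, rose from 7.19 and 7.33 to 8.87 and 8.80, or 2.98-fold (1.57 ± 0.08, limma adjusted p = 0.00052). Inppl1, the lipid phosphatase SHIP2 that binds EphA2, rose 1.33-fold, and did not pass when any array was left out (limma adjusted p from 0.051 to 0.087). The adaptor Grb7 fell from 10.25 and 9.86 to 8.31 and 8.74, or 2.89-fold lower (limma adjusted p = 0.0056). The polarity protein Pard6b was 2.60-fold lower and the Rac regulator Chn2, dim in all arrays, was 1.77-fold lower. Chn2 did not pass when TGFβ replicate 1 was left out (-0.79, limma adjusted p = 0.058). The kinases Src, Yes1, Abl1 and Abl2 and the ephrin sheddase Adam10 differed by 0.25, -0.10, -0.02, -0.03 and 0.07 without passing.

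Of 20 measured netrin and Slit effectors 3 rose, 2 fell and 15 did not pass (median 0.06). Dock1, a Rac activator that acts downstream of Dcc, rose 2.00-fold, from 7.76 and 7.60 to 8.77 and 8.58 (limma adjusted p = 0.0032). The heparan sulfate proteoglycan Gpc1, which binds Slits, rose by 0.58 on the log2 scale, but not past the threshold when untreated replicate 1 was left out (0.56, limma adjusted p = 0.052). Maged1, also called NRAGE, an Unc5 binding protein, also rose by 0.58. Ablim1, an actin-binding LIM protein, was 2.58-fold lower (limma adjusted p = 0.00076), and Dapk1, the death kinase that acts below Unc5b, was 1.84-fold lower (limma adjusted p = 0.0056). The small GTPases Rac1 and Cdc42 differed by -0.06 and -0.01. The Slit-Robo GTPase activating genes Srgap1 and Srgap2 differed by 0.08 and -0.06, and Srgap3 by -0.60 with a 95% interval of -1.35 to 0.15.

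**Figure D4:**
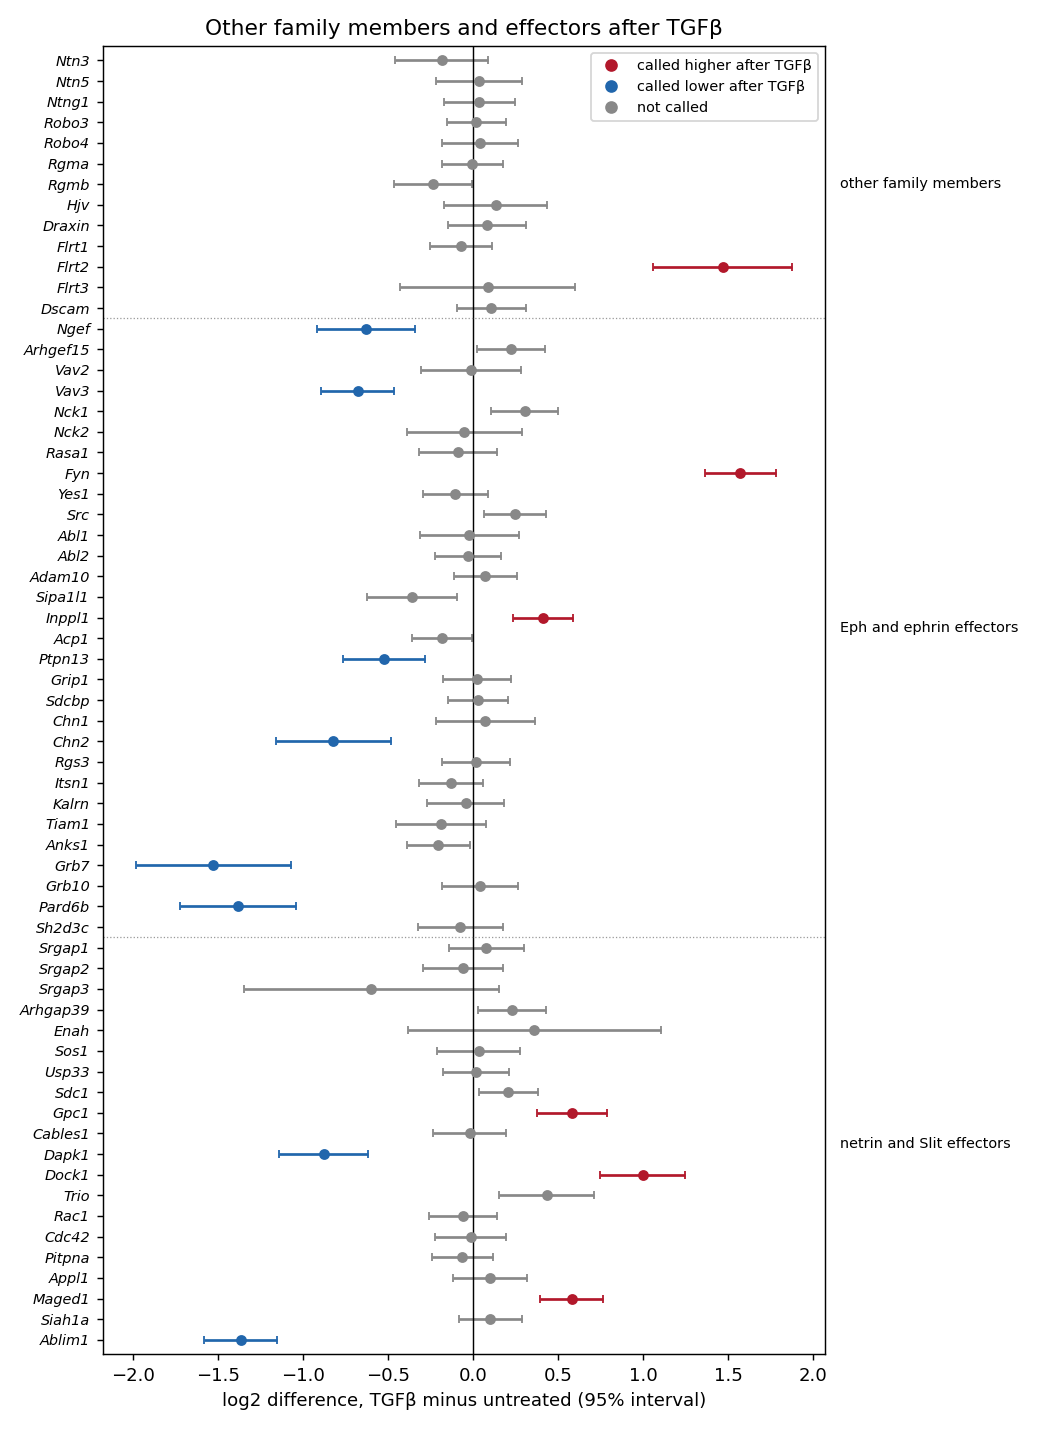
The log2 difference of the 63 measured further family members and effectors (horizontal axis, TGFβ minus untreated, dots with 95% intervals of the fit), grouped by list on the right and coloured as called higher (red), called lower (blue) or not called (grey). Fyn and Flrt2 lie farthest to the right at 1.57 and 1.47, and Grb7, Pard6b and Ablim1 farthest to the left at -1.53, -1.38 and -1.37.

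The treatment and the cells were checked on genes outside the families. The TGFβ target Smad7 rose 1.99-fold, and the epithelial adhesion genes Cdh1 and Epcam were 2.39-fold and 2.14-fold lower. Cdh1 did not pass when untreated replicate 1 was left out (-1.24, limma adjusted p = 0.057). Of 7 mammary epithelial markers 4 fell and 0 rose, with Krt8, Krt18 and Krt7 not passing, and their mean over the list was 12.19 and 12.26 untreated and 11.30 and 11.41 with TGFβ. Of 6 fibroblast and pericyte markers 1 rose (Pdgfrb, 2.01-fold), and Pdgfra, at 8.33 and 8.41 untreated and 8.64 and 9.08 with TGFβ, did not pass (0.49, limma adjusted p = 0.097). The other 4 (Dcn, Lum, Rgs5 and Dpt) were under 6 in all arrays. All 7 endothelial markers lay between 4.82 and 6.98 and 0 passed. Of 6 measured leukocyte markers 0 passed. Cd68 was lower with TGFβ in both arrays (-1.29, limma adjusted p = 0.052), as was Csf1r, at 7.90 and 7.35 untreated and 7.08 and 7.27 with TGFβ (-0.45, limma adjusted p = 0.20). The other 4 were under 7 in all arrays. Of 6 measured neuronal and glial markers 1 rose (Sox10, 0.46) and 2 fell (Map2, -1.33, and Nefl, -0.48). The summed log2 levels per array were 34.3 and 34.2 untreated and 35.2 and 36.2 with TGFβ for the fibroblast list, 40.4 and 40.5 against 40.4 and 40.9 for the endothelial list, 41.5 and 39.8 against 38.3 and 39.6 for the leukocyte list and 39.4 and 40.1 against 38.9 and 38.9 for the neuronal and glial list. The part of these markers in the members' differences was not tested.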

How the data were processed

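RNA of 4 Py2T samples was measured on Affymetrix arrays. The deposited log2 values per probe set were made by the authors with RMA in the R package oligo, per the submitters' processing notes. The sources used here do not give the summary level or a genome build. Probe sets with a single symbol in the array's gene table numbered 21789 of 35556, and the brightest by its mean over the 4 arrays stood for a gene, giving 19938 genes. Values were used as deposited, with no filter.

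The groups were fitted gene by gene in limma (version 3.58.1, R 4.3.3), TGFβ minus untreated (empirical Bayes, two-sided, with 2 residual degrees of freedom and 3.77 from the prior, Benjamini-Hochberg adjustment over all 19938 genes, called at adjusted p under 0.05). The procedure was also run on simulated data with independent noise and fewer changed genes than were called here. Its outcome is not given and adds no support to the calls. With 2 arrays a group an exact permutation test has a smallest two-sided p of 0.333, so none was run. Intervals are 95% intervals of the fit. The members and the gene lists were chosen with earlier results of these data known. All members are named, with up to 3 called rises and 3 called falls from each further list, the treatment check genes, and further list genes picked after their values were seen. Alternatives were 3 further normalizations, 2 filters on dim genes, the mean of all probe sets, an intensity trend with robust variances, a replicate block, leaving out each array, and a crossed block chosen after seeing the data. Promoter windows come from RefSeq on GRCm38.p6. Some list genes, Ephb2 among them, were not analysed here.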

Additional observations from a re-analysis of the deposited data

How the results depend on the processing

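Under 13 alternatives 9 of the 12 called members kept their call wherever they were tested, 3 (Epha4, Ephb4 and Ntn4) lost it at least once, and 0 changed sign. Of the 22 uncalled members 3 (Epha1, Epha2 and Ephb6) passed at least once, and 11 changed sign at least once without passing. With the replicate number as a block 785 genes were called higher and 839 lower, against 1294 and 1426, and 4 members were called lower against 7, with limma adjusted p of 0.051 for Epha4, 0.062 for Ephb4 and 0.11 for Ntn4, at unchanged log2 differences of -1.65, -0.46 and -0.53. Of the other named genes Inppl1 did not pass with the block (adjusted p = 0.057). The block changed no other count of calls by over 1.5 times, and 5 members were called higher with it too. With an array left out, and the lone array of its group assumed to vary like the others, the genes called higher numbered 740 to 1167 and those called lower 751 to 1093, the members called higher 5 in each case and those called lower 5 to 6. Deviations of same-numbered arrays from their group means correlated at -0.21, so the numbers do not show paired cultures. With the pairing crossed, a choice made after seeing the data, 1683 genes were called higher and 1957 lower, and 5 and 9 members. Of the 13 alternatives Ephb6 passed in this one only, at an unchanged log2 difference of -0.82. The median log2 difference over all genes was at most 0.03 under the 3 further normalizations. Without the dimmer 50% of genes Efna3 was not tested and 4 members were called higher. The causes were not tested. Signal near background limits the 15 dim members.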
